A study of Mus musculus with 4 samples.

Results

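The genes described here are 33 genes for structures and proteins of spermatids and sperm, fixed as a list by name and taken as the rows of the deposited count tables that carry those names. All 33 were present in both tables, out of 26041 gene symbols in all. The study took single tdTOMATO-positive cells from the testes of mice aged 4 wk, on a B6N background with the Eomes allele tm1.1(icre/ERT2)Reb, and counted transcripts by their 3′ ends with unique molecular identifiers (UMIs). Tomato-negative siblings set the sorting threshold, and a viability dye (DAPI) was used. Every cell, of either genotype, came from an animal with the Eomes-iCreERt2-tdTomato knock-in allele, in which the Eomes locus drives the inducible Cre and the fluorescent protein that served for sorting. Plzf +/+ cells (897) were compared with Plzf lu/lu cells (352), which are homozygous for the luxoid allele of Plzf, the gene listed as Zbtb16. The Plzf +/+ cells formed 3 libraries, of plates 1, 2 and 4 (317, 303 and 277 cells), and the Plzf lu/lu cells formed 2, of plates 3 and 4 (314 and 38 cells). The question was whether transcripts of the 33 genes lay in a few cells or as low counts over all cells, in each library.

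Spermatids are the haploid cells that follow meiosis, and they reshape into sperm. Their histones are replaced first by transition proteins and then by protamines, which pack the DNA tightly, while an acrosome forms over the nucleus and a flagellum with its fibres, fibrous sheath and mitochondrial sheath grows behind it. Many of these transcripts are made in round spermatids and stored before they are translated. Spermatogonia, the cells that the Eomes reporter was built to mark, stand at the other end of the lineage.

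The packaging genes carried the largest counts, and 4 of their promoters are shown because 3 of these genes lie close together, with Prm3 between Prm2 and Tnp2. In RefSeq (GRCm38.p6), Prm1, Prm2, Prm3 and Tnp2 are neighbours on chromosome 16, on the minus strand, and Tnp1 is on chromosome 1. The 150 bases before each start are printed 5′ to 3′ on the gene's own strand, with the letters TATAA, on either strand, in capitals.
Prm1, chr16:10796824-10796973: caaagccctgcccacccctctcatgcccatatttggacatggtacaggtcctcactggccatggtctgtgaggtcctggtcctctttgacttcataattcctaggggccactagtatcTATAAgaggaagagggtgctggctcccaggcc
Prm2, chr16:10792106-10792255: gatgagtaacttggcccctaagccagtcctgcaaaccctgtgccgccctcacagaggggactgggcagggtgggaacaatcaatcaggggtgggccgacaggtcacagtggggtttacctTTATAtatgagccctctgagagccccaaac
Tnp2, chr16:10788656-10788805: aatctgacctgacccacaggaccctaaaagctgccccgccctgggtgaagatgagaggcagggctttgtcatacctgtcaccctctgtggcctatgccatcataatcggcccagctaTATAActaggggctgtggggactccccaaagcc
Tnp1, chr1:73015900-73016049: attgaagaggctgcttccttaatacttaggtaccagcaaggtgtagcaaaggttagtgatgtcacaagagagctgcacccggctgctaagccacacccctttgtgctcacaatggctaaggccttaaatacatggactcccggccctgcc

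The match began 32 bases before the start in Prm1 and 33 bases before it in Tnp2. In Prm2 the letters were on the opposite strand, 30 bases before the start, and Tnp1 held no match. A promoter window of 300 bases (250 before and 50 after the start) was found for 29 of the 33 genes. Oaz3, Acr, Odf1 and Fabp9 had none. TATAA on either strand was in the windows of 8 of the 29 genes (27.6%), against 7565 of all 27025 genes with a window, a like share. The letters TGACGTCA, a full cAMP response element, were in 1 of the 29 (Izumo1), against 2.03% of all genes. A match is only a run of letters and was not tested for binding.

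The 5 libraries held 254514 to 2608702 UMIs, with a median of 5061 to 6364.5 UMIs per cell. Zbtb16 itself had 164, 126 and 141 UMIs in Plzf +/+ and, in the mutant, 46 in plate 3 and 3 in plate 4. Dazl, a germ cell gene, was found in 88.6 to 96.4% of the cells outside the group defined below, while the markers of erythroid, endothelial, Leydig and peritubular myoid cells and of macrophages each summed to at most 0.156 UMIs per 10000 there. The plates used a common set of 376 barcodes, of which 18 occurred in 1 library only. On plate 4, 5 Plzf +/+ cells lay in wells that the labels give to Plzf lu/lu, and the genotype of their table was kept. In 24 cells the UMIs exceeded 4 times the median of the genotype, and possible doublets were not removed. Plates other than plate 4 held 1 genotype each, and there the effects of plate and of genotype cannot be told apart.

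The 33 genes together had 67555 UMIs, 0.721% of all UMIs, and most of them lay in few cells. Their sum was 6488 UMIs (0.305% of the library) in Plzf +/+ of plate 1, 26309 (1.11%) in plate 2 and 20011 (0.998%) in plate 4. In Plzf lu/lu it was 11961 UMIs (0.459%) in plate 3 and 2786 (1.09%) in plate 4. The share was thus low in plates 1 and 3 and near 1% in the other 3 libraries, and the genotypes overlapped.

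Cells with at least 1% of their UMIs from these genes are called member-rich cells below. There were 96 of them among 1249 cells (7.69%), 70 Plzf +/+ and 26 Plzf lu/lu, and they held 89.8% of the UMIs of the 33 genes. By library they numbered 10, 32 and 28 in Plzf +/+ of plates 1, 2 and 4, or 3.15% (95% exact Clopper-Pearson interval 1.52 to 5.72), 10.6% (7.34 to 14.6) and 10.1% (6.82 to 14.3) of the cells. In Plzf lu/lu they numbered 23 of plate 3 (7.32%, 4.70 to 10.8) and 3 of plate 4 (7.89%, 1.66 to 21.4). These intervals cover counting error only. The interval of plate 1 lay below those of plates 2 and 4 of its own genotype, and both Plzf lu/lu intervals overlapped all of the others. Since the cells were chosen by these counts, the values are a description without a test.

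Member-rich cells held 85.0, 91.8 and 92.8% of the genes' UMIs in Plzf +/+ of plates 1, 2 and 4 (89.9% ± 4.21, SD, n = 3 libraries) and 82.5 and 92.2% in Plzf lu/lu of plates 3 and 4 (87.4% ± 6.84, SD, n = 2). A single cell held 22.8, 15.4 and 23.2% of the UMIs in Plzf +/+, and the matching values of Plzf lu/lu were 16.4 and 60.7%. The last value, from a library of 38 cells, rested on 1690 of 2786 UMIs. The median cell had 1, 3 and 3 UMIs of all 33 genes together in Plzf +/+ and 2 and 2.5 in Plzf lu/lu. Just outside the threshold stood cells with 0.953 and 0.959%, and just inside it cells with 1.00 and 1.01%, so the values ran on without a gap there, and 41 cells had 0.5 to 1%.

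**Figure D1:**
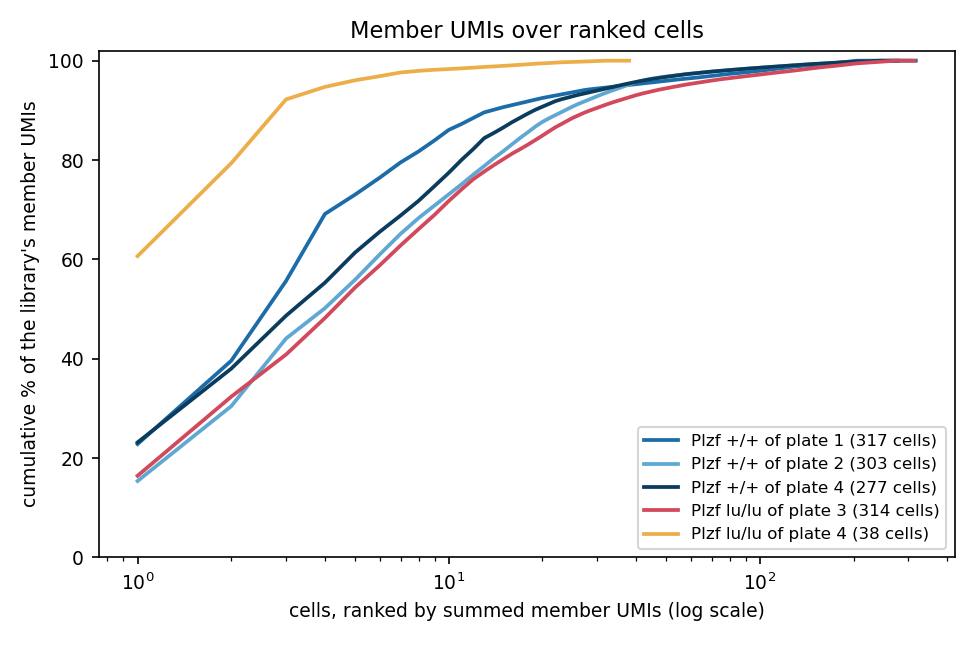
Cumulative percentage of each library's UMIs of the 33 genes (vertical axis) over its cells ranked by those UMIs (horizontal axis, log scale), 1 line per library. The first 10 cells held 86.1, 73.1 and 77.4% in Plzf +/+ of plates 1, 2 and 4 and 71.8 and 98.3% in Plzf lu/lu of plates 3 and 4.

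For each gene, the number of cells with a UMI was set against the number expected if its UMIs were spread over the cells of each library in proportion to their depth. A gene was called concentrated when it was seen in fewer than 50% of the expected cells. In Plzf +/+ cells 32 of the 33 genes were concentrated, where 6.23% of all 14502 genes with at least 20 UMIs were. In Plzf lu/lu cells 32 of 33 were, where 6.58% of 12042 genes were. The median observed over expected was 0.257 for the 33 genes and 0.952 for all genes in Plzf +/+, and 0.300 and 0.924 in Plzf lu/lu. The exception in both genotypes was Izumo1, the sperm protein needed for fusion with the egg, at 0.819 and 0.661. It was also the least abundant of the 33, with 49 and 24 UMIs. By another measure, at least 50% of a gene's UMIs in its 10 highest cells, 25 of the 33 genes were concentrated in Plzf +/+, where 13.5% of all genes were, and Akap3, Crisp2, Fabp9, Odf2, Ropn1, Tssk2 and Zpbp were lost beside Izumo1. All 33 were by that measure in Plzf lu/lu, with fewer cells, where 20% of all genes were.

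**Figure D2:**
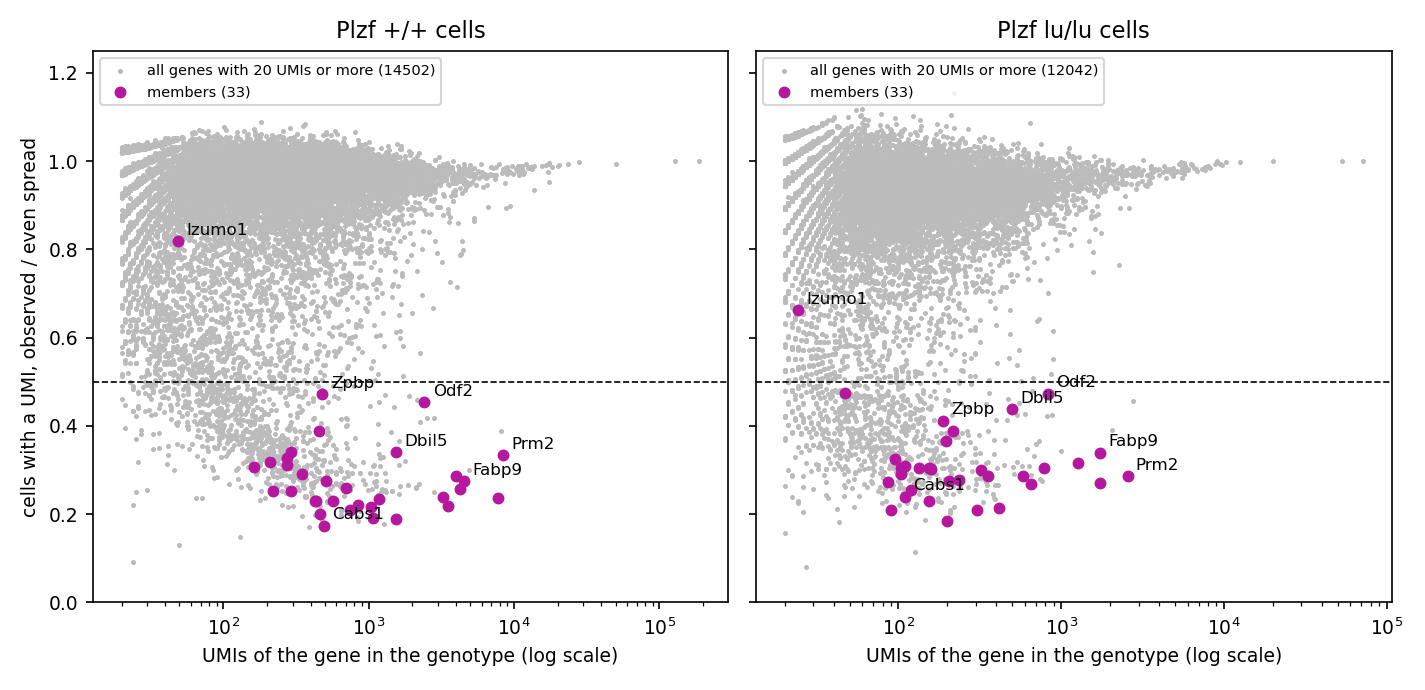
Cells with a UMI as a ratio to the number expected from an even spread (vertical axis) against the UMIs of the gene (horizontal axis, log scale), for the 33 genes (purple) and all genes with at least 20 UMIs (grey), in Plzf +/+ (left) and Plzf lu/lu cells (right); the dashed line is the ratio of 0.5. All of the 33 but Izumo1 lie under the line, while most genes lie near 1.

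Among the 7 chromatin packaging genes, 94.6 to 96.6% of UMIs were in member-rich cells in Plzf +/+ and 81.8 to 92.9% in Plzf lu/lu. Prm2, a protamine, had the most UMIs of all 33 genes. It had 1224, 4264 and 2963 UMIs in 38, 134 and 117 cells of the Plzf +/+ libraries of plates 1, 2 and 4, where an even spread would give 293, 301 and 273 cells. In Plzf lu/lu it had 1758 UMIs in 80 cells of plate 3 and 799 in 16 cells of plate 4, where 298 and 37.9 cells would be expected. Of the cells with Prm2, 21, 73 and 58 in Plzf +/+ and 42 and 10 in Plzf lu/lu had a single UMI, so many cells with the transcript held the least amount that could be counted. Prm1, the other main protamine, had 611, 4051 and 3068 UMIs in Plzf +/+ and 1370 and 369 in Plzf lu/lu. A single cell held 38.3, 28.6 and 37.5% of the Prm1 UMIs in Plzf +/+ and 40.5 and 76.4% in Plzf lu/lu.

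Tnp1 and Tnp2, the transition proteins, had few UMIs beside the protamines in the small library. Tnp1 had 202, 2126 and 1658 UMIs in Plzf +/+ of plates 1, 2 and 4, and 645 and 6 in Plzf lu/lu of plates 3 and 4. The 6 UMIs lay in 4 cells of a library in which Prm1 had 369 and Prm2 had 799 UMIs. Within member-rich cells there were 17.7, 46.9 and 53.6 transition protein UMIs per 100 protamine UMIs in Plzf +/+ and 36.2 and 1.84 in Plzf lu/lu, so plate 1 and the Plzf lu/lu cells of plate 4 stood lowest. These low values rest on few cells. In Plzf lu/lu of plate 4, 2 cells had 864 and 274 of the 1140 protamine UMIs. In plate 1, a single cell had 671 of the 1723 protamine UMIs and 2 transition protein UMIs. Of 32 cells with at least 100 protamine UMIs, 7 had at most 2 Tnp1 UMIs, with both genotypes among them. Cells of a library are not replicates, so no share by genotype is read from these cells. Hmgb4, an HMG-box protein, and H1fnt, a linker histone of spermatids, were seen in 0.191 and 0.230 of the expected cells in Plzf +/+. Prm3, a gene of the protamine cluster, had 750 UMIs in 86 Plzf +/+ cells and 205 in 36 Plzf lu/lu cells.

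The 7 genes of kinases and signalling had 85.4 to 94.3% of their UMIs in member-rich cells in Plzf +/+ and 76.9 to 93.0% in Plzf lu/lu. Akap4, the main anchoring protein of the fibrous sheath, was seen in 15, 39 and 28 Plzf +/+ cells and 28 and 4 Plzf lu/lu cells, against 80.6, 153 and 123 and 81.4 and 24.2 expected. Tssk6, a testis-specific serine kinase, had 47 of its 56 UMIs in 1 cell of Plzf lu/lu of plate 4. Tssk1, Tssk2, Tssk3 and Tssk6 are paralogs, and Tssk1 and Tssk2 lie next to each other, so counts of single kinases may include reads of another. Ropn1, a partner of the fibrous sheath, had a ratio of 0.221 in Plzf +/+ and 0.210 in Plzf lu/lu. Akap3, a further anchoring protein of the fibrous sheath, had 294 and 110 UMIs, and Tssk1, Tssk2 and Tssk3 had 347, 275 and 211 UMIs in Plzf +/+ and 134, 95 and 86 in Plzf lu/lu.

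The 4 genes of the flagellum and mitochondrial sheath were less alike. Smcp, a protein of the mitochondrial sheath, had 623, 1484 and 1163 UMIs in 33, 77 and 77 Plzf +/+ cells and 557 and 225 UMIs in 65 and 14 Plzf lu/lu cells. Odf2, an outer dense fibre protein that is also a component of centrosomes, was seen in more cells, 84, 121 and 109 in Plzf +/+ and 115 and 14 in Plzf lu/lu, with 79.0 and 75.6% of its UMIs in member-rich cells. Its ratio of 0.454 in Plzf +/+ and 0.473 in Plzf lu/lu was the highest of the 4. Odf1 and Spem1 had ratios of 0.259 and 0.252 in Plzf +/+.

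The 8 acrosome and surface genes had ratios of 0.230 to 0.819 in Plzf +/+ and 0.185 to 0.661 in Plzf lu/lu. Acrv1, an acrosomal protein, had ratios of 0.230 in Plzf +/+ and 0.185 in Plzf lu/lu. Crisp2, a cysteine-rich protein of the acrosome and tail, had 523, 2105 and 1639 UMIs in Plzf +/+ and 1104 and 158 in Plzf lu/lu, with 86.1 and 75.0% of them in member-rich cells. Acr, the acrosomal protease acrosin, had 276 and 103 UMIs, Spaca3, an acrosome membrane protein, had 291 and 154, and Spata16 had 509 and 153, all with ratios of 0.231 to 0.328. Zpbp, which binds the zona pellucida, had a ratio of 0.471 in Plzf +/+ and 0.412 in Plzf lu/lu, and 67.4 and 64.4% of its UMIs in member-rich cells. In Plzf +/+ of plate 1 Zpbp had 50 UMIs in 37 cells where 45.1 were expected. Spaca1, an acrosomal membrane protein, had 50 UMIs in 28 cells of that library where 45.1 were expected. Their ratios in that library, 0.820 and 0.621, were above 0.5, as were those of Izumo1 (0.837), Spata16 (0.513) and Tssk1 (0.509) there. The small library, Plzf lu/lu of plate 4, held 5 such genes: Tnp1 (0.752, 6 UMIs), Hspa1l (0.709, 3 UMIs), Zpbp (0.586, 8 UMIs), Hmgb4 (0.531, 15 UMIs) and Izumo1 (1.04, 2 UMIs). In the other 3 libraries Izumo1 was the 1 gene above it. Plate 1 was also the Plzf +/+ library with the fewest member-rich cells.

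Of the 7 remaining genes, Cabs1, a calcium-binding protein of spermatids, was the most concentrated of all 33 in Plzf +/+ with a ratio of 0.174. It was seen in 12, 22 and 24 cells there and in 18 and 2 Plzf lu/lu cells. Fabp9, a fatty acid binding protein of the sperm head, had 457, 2435 and 1651 UMIs in Plzf +/+ and 1547 and 180 in Plzf lu/lu. Outside the member-rich cells a cell still held up to 23, 91 and 21 Fabp9 UMIs in Plzf +/+ and 87 and 21 in Plzf lu/lu, whereas for Prm2 these highest counts were 18, 19, 16, 20 and 5. Oaz3, a testis antizyme, and Spz1, Gsg1, Hspa1l and Dbil5 had ratios of 0.189 to 0.341 in Plzf +/+.

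A longer list of 55 other spermatid genes in the tables, chosen by function, gave 49 concentrated genes in Plzf +/+ and 45 in Plzf lu/lu. Those that were not in Plzf +/+ included Tuba3a and Tuba3b, testis alpha-tubulins, with ratios of 0.864 and 0.726. Outside the 33 genes, Fhl4 (Pearson r = 0.755 over 897 Plzf +/+ cells, 0.690 over 352 Plzf lu/lu cells), Pgk2 (0.749 and 0.726), Tcp11 (0.747 and 0.715) and Ldhc (0.742 and 0.709) had, in Plzf +/+ cells, the patterns most like the summed 33 genes. The order differed in Plzf lu/lu cells, with Hrasls5 (0.746) and Gm9999 (0.727) above these 4. Pgk2 and Ldhc are enzymes of energy metabolism specific to the germ line from meiosis on. The next 11 were Hrasls5, Meig1, Pgam2, Pdcl2, Gapdhs, Gm9999, 4922502D21Rik, Fam229b, Gm5617, 2210404O07Rik and 1700030C12Rik, at 0.664 to 0.740 in Plzf +/+. These correlations share the cells' depth and rest on the log of 1 plus UMIs per 10000, and are given as a description.

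The member-rich cells differed among themselves in which of the 33 genes they held. Their members detected ran from 7 to 33 with a median of 24, and 10 of the 96 cells had all 33. Prm1, Prm2, Tnp1 and Tnp2 made up at least 50% of the genes' UMIs in 39 cells (29 Plzf +/+ and 10 Plzf lu/lu), in which the genes' share ran from 1.03 to 27.9% of the cell. Fabp9 and Crisp2 made up at least 50% in 9 cells (6 and 3), where that share was 1.00 to 1.46%. The grouping itself fixes a difference in protamine UMIs between these cells. Of values it did not use, the 9 cells had medians of 193 UMIs of Ldhc and 21353 UMIs in all, the 39 cells 11 and 5472, and the other 48 cells 41 and 11741.

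Over the 96 cells the strongest pairs on the log scale were Prm1 with Prm2 (r = 0.860), Oaz3 with Smcp (0.842) and Tnp1 with Tnp2 (0.841), and the most opposed pair was Prm2 with Spata16 (-0.591), a gene of acrosome formation. Acrv1 with Spaca3 (0.781) and Fabp9 with Crisp2 (0.699) also varied together. All pairs share depth and the threshold that chose the cells.

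The make-up also changed with the share of the cell that the 33 genes took. The chromatin packaging genes took a median of 32.1% of the genes' UMIs in the 44 cells with a share of 1 to 2%, 45.0% in 26 cells at 2 to 5%, 57.1% in 13 cells at 5 to 10%, 73.1% in 7 cells at 10 to 20% and 59.7% in 6 cells at 20% or more. The acrosome and surface genes took 18.9, 11.6, 7.99, 2.34 and 3.23% in the same order. The 6 cells of the highest share had a median of 4063.5 UMIs and 892.5 genes, against 10888.5 UMIs and 4367.5 genes in the 44 cells of the lowest. None of the 6 held a UMI of Dazl or Gfra1 or of Spaca1, and 6 of 6 held Ldhc. They were 3 Plzf +/+ and 3 Plzf lu/lu cells.

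**Figure D3:**
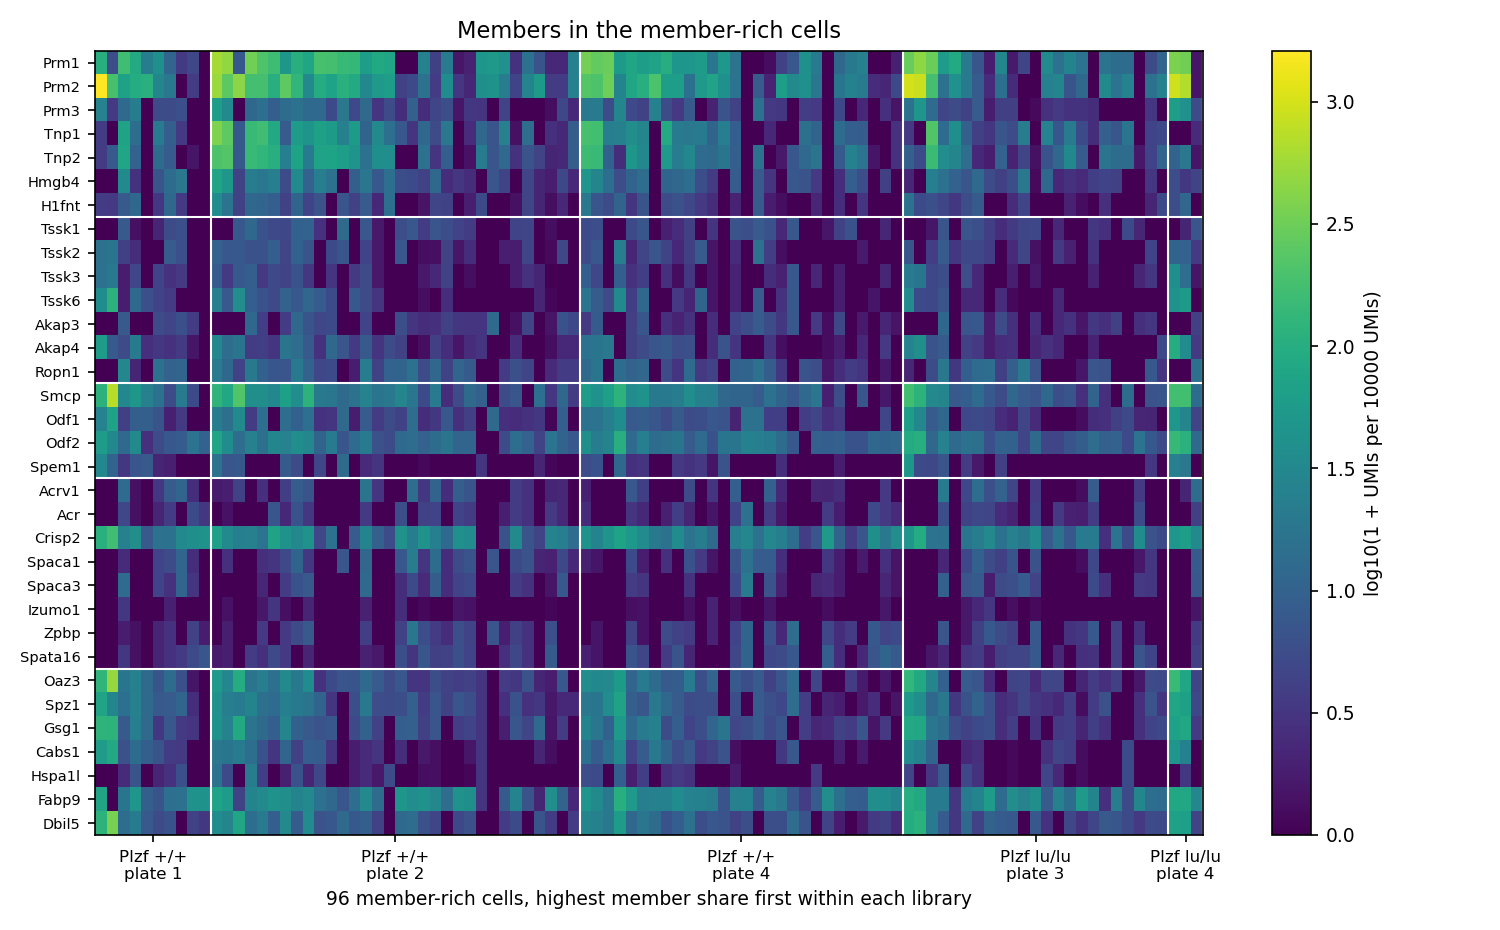
UMIs per 10000 of each of the 33 genes (rows, grouped by role, white lines between roles) in the 96 member-rich cells (columns, grouped by library and ordered by falling share), as log10(1 + value) in colour. Prm1 and Prm2 are bright in many cells of high share but not always together: the second cell of plate 1 has 2 Prm1 and 80 Prm2 UMIs. It has 308 of Smcp and 213 of Oaz3. Tnp1 is at 0 in the 2 cells of Plzf lu/lu of plate 4 that have 582 and 195 Prm2 UMIs.

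Marker lists of other cell types were summed in the member-rich cells and in the other cells. Genes of spermatocytes (11 genes) summed to 65.7, 83.4 and 90.3 UMIs per 10000 in the member-rich cells of Plzf +/+ and 75.7 and 78.3 in those of Plzf lu/lu, against 9.69, 16.2 and 11.9, and 12.6 and 14.5, in the other cells. Ldhc alone had 43.9, 55.3 and 60.7 in member-rich cells of Plzf +/+ and 47.1 and 49.2 in those of Plzf lu/lu. In the other cells Ldhc had 1.10, 5.21 and 2.74, and 3.62 and 3.40. Its pattern was among those most like the summed spermatid genes, as given above. The spermatocyte sums were not computed without Ldhc, so broad expression of spermatocyte genes is not read from them. Genes of undifferentiated spermatogonia (16 genes) went the other way from the spermatocyte sums, with 7.39, 4.63 and 4.76, and 4.49 and 0.326 in member-rich cells, against 13.7, 15.3 and 14.3, and 9.88 and 8.89. Gfra1, a receptor of the youngest spermatogonia, was still found in 40.0, 65.6 and 53.6% of the member-rich cells in Plzf +/+ and in 30.4 and 0% in Plzf lu/lu, where 0 of 3 cells cannot show a low share. In the other cells, which were shallower, the shares were 65.5, 66.1 and 58.6%, and 38.5 and 42.9%. Per 10000 UMIs Gfra1 had 1.11, 0.943 and 0.814, and 0.524 and 0, in member-rich cells. The other cells had 2.45, 2.77 and 2.45, and 1.40 and 1.52. The 9 genes of Sertoli cells, the somatic cells of the tubule, summed to 5.91, 3.38 and 4.78 UMIs per 10000 in member-rich cells of Plzf +/+ and 14.2 and 3.91 in those of Plzf lu/lu, against 5.43, 5.25 and 4.39, and 9.86 and 7.82, in the other cells. Whether several cells in 1 well contributed to these counts was not tested.

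Most of the other cells held a few UMIs of the 33 genes, and 241 cells held none. At least 1 UMI of any of them was found in 63.5% (95% exact Clopper-Pearson interval 57.9 to 68.9), 83.8% (78.8 to 87.9) and 86.3% (81.4 to 90.4) of these cells in Plzf +/+ of plates 1, 2 and 4. In Plzf lu/lu the shares were 84.5% (79.9 to 88.5) in plate 3 and 82.9% (66.4 to 93.4) in plate 4. The sum was 4.80, 12.0 and 9.47 UMIs per 10000 in Plzf +/+ and 9.30 and 9.69 in Plzf lu/lu, against 509.7, 414.1 and 387.5, and 272.2 and 837.7, in the member-rich cells. Much of that low sum lay in the 108 cells between 0.2 and 1%, and the cells under 0.2% had 2.49, 4.39 and 4.90 UMIs per 10000 in Plzf +/+ and 3.20 and 4.43 in Plzf lu/lu. The median depth over all cells under 1% was 4950 to 6099 UMIs and 8230 to 15552.5 in the member-rich cells. Plate 1 was the lowest by both measures, and the other 4 libraries had overlapping intervals. With each cell thinned to 2000 UMIs, the shares were 37.7, 53.7 and 60.8% in Plzf +/+ and 55.2 and 46.2% in Plzf lu/lu, with 10, 27, 26, 10 and 9 shallower cells left out.

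The spread was also computed without the member-rich cells, whose choice by these same counts removes high counts of the 33 genes. Among the 27 genes that still had 20 UMIs in Plzf +/+, 4 were concentrated (Crisp2, Fabp9, Ropn1 and Spata16), where 0.709% of all genes were. In Plzf lu/lu 4 of 22 were (again Crisp2, Fabp9, Ropn1 and Spata16), where 1.16% of all genes were. The 23 genes not called in Plzf +/+ included Prm1, Prm2, Prm3, Tnp1 and Tnp2. The median ratio was 0.734 in Plzf +/+ and 0.627 in Plzf lu/lu, still below the medians of all genes in the same cells, 0.948 and 0.931.

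The lowest counts were examined in the 1045 cells with under 0.2% of their UMIs from the 33 genes, which held 2532 of these UMIs (3.75%). Of these cells 804 (76.9%) had at least 1 of them. Because the cells were taken for a low sum, high counts of any gene were removed from them. That choice, and the few UMIs of most of the genes there, hold the cells with a UMI near the number expected from an even spread, so no count of genes is read from that ratio. It was lowest for Fabp9 (0.743) and Crisp2 (0.748). The sum per 10000 UMIs was 2.49, 4.39 and 4.90 in Plzf +/+ of plates 1, 2 and 4 and 3.20 and 4.43 in Plzf lu/lu of plates 3 and 4. The libraries of plates 1 and 3, which had the smallest overall share of the 33 genes, also had the lowest level in these cells, and plate 4 had 4.90 in Plzf +/+ and 4.43 in Plzf lu/lu.

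The low counts did not have the make-up of the high counts. Over all libraries together, Prm1 made up 14.9% of the genes' UMIs in member-rich cells and 6.12% in the cells under 0.2%, and its part was smaller in the low counts in each of the 5 libraries. Prm2 made up 17.1 and 11.4%, but in Plzf +/+ of plate 4 its part was larger in the low counts, 16.8 against 14.9%. Odf2 made up 4.18 and 14.4%, Dbil5, a relative of the diazepam binding inhibitor, 2.81 and 8.77%, Zpbp 0.735 and 4.66%, Spaca1 0.816 and 3.71% and Izumo1 0.0742 and 0.790%. These 5 genes, singled out after their values were seen, had over all libraries together at least 3 times the part in low counts that they had in high counts, from 3.12 times for Dbil5 to 10.7 times for Izumo1. The value of Izumo1 rests on 20 UMIs in the low cells. By library the difference was smaller in some, such as Dbil5 in plate 1 (9.19 against 5.27%) and Odf2 in Plzf lu/lu of plate 4 (9.20 against 5.72%, from 8 low-count UMIs), and Izumo1 and Zpbp had 1 low-count UMI each in the latter library. Odf2 was seen in 64, 66 and 62 of these cells in Plzf +/+ of plates 1, 2 and 4 and in 65 and 8 in Plzf lu/lu of plates 3 and 4. Prm2 was seen in 21, 79 and 74, and in 39 and 10, so Odf2 was in more cells than Prm2 in plates 1 and 3 and in fewer in the other 3 libraries.

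**Figure D4:**
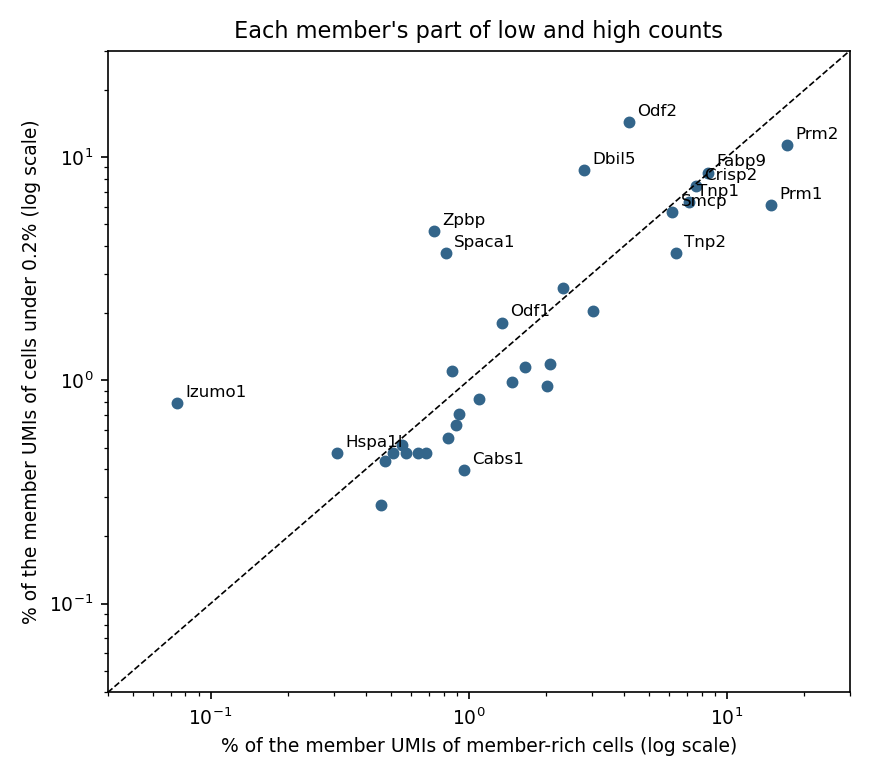
Part of each of the 33 genes in the genes' UMIs of the 1045 cells under 0.2% (vertical axis, percent, log scale) against its part in the 96 member-rich cells (horizontal axis, percent, log scale), with the dashed line of equal parts. Izumo1, Zpbp, Spaca1, Odf2 and Dbil5 lie well above the line, and Prm1 lies below it.

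In the cells under 0.2% Odf2 had 0.421, 0.665 and 0.631 UMIs per 10000 in Plzf +/+ of plates 1, 2 and 4 and 0.445 and 0.408 in Plzf lu/lu of plates 3 and 4, the last from 8 UMIs. Prm2 went from 0.130 in plate 1 to 0.613 and 0.823 in plates 2 and 4 of Plzf +/+, with 0.217 and 0.764 in Plzf lu/lu. It was lowest in plates 1 and 3 and highest in plate 4, in both of its genotypes. No cell type that should lack these transcripts was set apart, so whether a low count came from the cell itself or from RNA shared between wells was not tested.

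The promoters of these 5 genes were also counted for CpG pairs. They had 30 (Dbil5), 26 (Odf2), 16 (Spaca1), 8 (Izumo1) and 7 (Zpbp) in the window of 300 bases at the first annotated start, with a median of 16. The other 24 genes with a window had a median of 3.5, from 0 to 14, and 6 of them had 7 or more. The median over all 27025 genes was 7. As this was noticed after the 5 genes were chosen, it is a description. The 150 bases before the start of Dbil5, on the plus strand, are shown for contrast with the protamine promoters, with its 19 CpG pairs in capitals.
Dbil5, chr11:76217463-76217612: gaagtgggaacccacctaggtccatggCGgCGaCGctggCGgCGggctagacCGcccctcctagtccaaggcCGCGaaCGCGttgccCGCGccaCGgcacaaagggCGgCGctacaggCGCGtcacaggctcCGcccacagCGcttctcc

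Between genotypes, no change of the 33 genes passed the test. Sums of UMIs per library were compared by the quasi-likelihood test of edgeR. P-values were adjusted by Benjamini-Hochberg over all 13728 genes tested, of which 112 (0.816%) had an adjusted p under 0.05. None of the 33 genes did, none had an unadjusted p under 0.05, and DESeq2 also called 0 with 0 under 0.05 unadjusted. The log2 fold change of Plzf lu/lu over Plzf +/+ was above 0 for 17 and below 0 for 16, with a median of 0.002 beside 0.004 for all genes. In sums over a library, fewer cells of a type and less RNA per cell cannot be told apart, and the labels name no animals, so p-values measure the spread between these libraries only.

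By role, the chromatin packaging genes had the lowest median, -0.80, with 5 of 7 below 0. Tnp1 had 94.5, 873.2 and 850.0 CPM (counts scaled by TMM library sizes) in Plzf +/+ of plates 1, 2 and 4, and 257.0 and 24.1 in Plzf lu/lu of plates 3 and 4. Its log2 fold change was -1.87 (SE 1.22; edgeR adjusted p = 0.609), and the plate 1 value lay between the Plzf lu/lu values. Tnp2 had 78.1, 729.5 and 797.2, and 223.5 and 92.5 (log2 -1.64, SE 1.07; edgeR adjusted p = 0.610). Prm2 had 572.7, 1751 and 1519, and 700.5 and 3214, with a log2 fold change of 0.59 (SE 0.78; edgeR adjusted p = 0.854), so the highest and the second lowest values fell in the same genotype.

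The medians of the other roles were -0.01 for kinases and signalling (3 of 7 above 0), 0.20 for the flagellum and mitochondrial sheath (4 of 4 above 0), -0.08 for acrosome and surface genes (4 of 8 above 0) and 0.02 for the remaining genes (4 of 7 above 0). The 4 of 4 includes Odf1 at 0.0018 and depends on the grouping. Akap3 (-0.21), Akap4 (0.30) and Ropn1 (-0.07), linked to the fibrous sheath, were counted with kinases and signalling. Smcp had 291.5, 609.5 and 596.2 CPM in Plzf +/+ and 221.9 and 905.0 in Plzf lu/lu. Fabp9 had 213.8, 1000.1 and 846.4, and 616.4 and 724.0, and Crisp2 had 244.7, 864.6 and 840.3, and 439.9 and 635.5. For each of these 3 genes plate 1 was the lowest of the Plzf +/+ libraries, as it was for all 33 genes. Of the other spermatid genes, 0 of 55 tested were called (0 with an unadjusted p under 0.05), with 21 above 0 and a median of -0.14. Of the Sertoli cell genes, 4 of 9 tested were called higher in Plzf lu/lu (Amhr2, Cldn11, Clu and Sox9), with a median of 2.06, while 12 of 16 genes of undifferentiated spermatogonia were below 0, with a median of -0.53 and 3 called lower (Lhx1, T and Zbtb16). The part of either list in the values of the 33 genes was not tested.

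Leaving out plate 1 changed the count. Without the Plzf +/+ library of plate 1, 6 of the 33 genes were called lower in Plzf lu/lu, where 4.83% of all genes were. They were Hmgb4 (log2 -1.46, edgeR adjusted p = 0.000103), H1fnt (-1.19, 0.00214), Spata16 (-1.02, 0.00619), Crisp2 (-0.71, 0.0110), Tnp2 (-2.07, 0.0122) and Fabp9 (-0.48, 0.0437), and the median of the 33 was -0.55. In Plzf lu/lu of plate 4, in the same order, these genes had only 15, 10, 7, 158, 23 and 180 UMIs. Most of these UMIs lay in the 3 member-rich cells of that library, so the 6 calls are not separate results. Without any other library 0 were called, where few genes were called at all: 0.0075 and 0.00736% of all genes without Plzf +/+ of plates 2 and 4, and 0.00695 and 0.0404% without Plzf lu/lu of plates 3 and 4. So these counts of 0 say nothing of the 33 genes. The median was 0.21 and 0.15 without Plzf +/+ of plates 2 and 4, 0.51 without Plzf lu/lu of plate 3 and -0.52 without Plzf lu/lu of plate 4. Without the member-rich cells 25 of the genes were tested and 0 were called, where 10.6% of all genes were, and the median was 0.22. Those cells were chosen by these same counts, so the genes' high counts were removed before this test. Its 0 therefore cannot show whether the genotypes differ in these genes.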

How the data were processed

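The authors deposited 1 table of raw UMI counts per genotype, as gene symbols by cells, without normalization. The submitters' processing notes name bcl2fastq 2.18.0.12, Picard 2.9.3, STAR 2.5.4a and GRCm38. Each UMI stands for a captured 3′ end, so counts were not divided by gene length. Cells were assigned to a plate by the ending of their names, and to a genotype by the table. No cells were filtered and no cell types were named.

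The 33 members, the gene lists, the thresholds and the rules were chosen with earlier results of these data known. Genes named beyond the members were the 15 with the largest correlation to the summed members over Plzf +/+ cells, among genes found in at least 10 of these cells, and genes of the lists by counts. The 5 genes of the low counts and the CpG count were chosen after their values were seen.

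Sums per library were kept by filterByExpr, normalized by TMM and tested with edgeR 4.0.16 (glmQLFit and glmQLFTest, robust) in R 4.3.3, with an adjusted p under 0.05 and no fold threshold. CPM values are scaled by TMM. The test and the expected number of cells were checked on simulated data. Cells were thinned with seed 1. The alternatives were DESeq2 1.42.0, upper-quartile factors, no filter, each library left out, other thresholds for a member-rich cell (0.2 and 5%), without Prm1 and Prm2, at least 2 UMIs, at least 50 UMIs per gene, and 10 cells holding 50% of a gene's UMIs. Other tools were pandas 2.3.3, numpy 2.4.6 and scipy 1.17.1.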

Additional observations from a re-analysis of the deposited data

How the results depend on the processing

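No paired analysis was possible because only plate 4 held both genotypes. The number of the 33 genes called between genotypes ranged from 0 to 6 when a library was left out, with 6 without Plzf +/+ of plate 1. The 4 counts of 0 among these came from fits that called 1 to 6 of all genes, and say nothing of stability. The number was 0 with DESeq2, with upper-quartile factors and with no filter. It was also 0 without member-rich cells, but that choice removes the genes' own high counts and is no check of stability. The share of the genes' UMIs in member-rich cells depended on the threshold: at 0.2% it was 95.6% in Plzf +/+ and 95.8% in Plzf lu/lu, and at 5% it was 63.0 and 58.1%. The share of other cells with a UMI was 50.7% in both genotypes after thinning, 55.3 and 59.7% for at least 2 UMIs, and 81.9% in Plzf lu/lu at 0.2%. Without Plzf lu/lu of plate 3, 21 of the genes still had 20 UMIs and all 21 were concentrated, where 5.83% of 3001 genes were. What remains there is 1 library of 38 cells, in which 3 member-rich cells held 92.2% of the genes' UMIs. Concentrated genes were 4 in each genotype without the member-rich cells, where 0.709 and 1.16% of all genes were in Plzf +/+ and Plzf lu/lu.

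Log2 fold changes of single genes turned in sign. With 1 library left out at a time they ranged from -0.87 to 1.31 for Prm2, -1.17 to 0.84 for Smcp, -0.55 to 0.23 for Ropn1 and -0.48 to 0.33 for Fabp9. Prm2 (0.59) was -0.87 without Plzf lu/lu of plate 4 and -0.13 without member-rich cells. Smcp (0.10) was -0.26 without Plzf +/+ of plate 1, -1.17 without Plzf lu/lu of plate 4 and -0.10 without member-rich cells. Ropn1 (-0.07) was 0.19, 0.15 and 0.23 without Plzf +/+ of plates 2 and 4 and Plzf lu/lu of plate 3, and 0.26 without member-rich cells. Fabp9 (-0.04) was 0.33, 0.10 and 0.06 without the same 3 libraries and 0.22 without member-rich cells. Crisp2 (-0.30) was 0.24 without member-rich cells. Tnp1 (-1.87) kept its sign but not its size, from -4.66 (without Plzf lu/lu of plate 3) to -1.24 (without Plzf lu/lu of plate 4) with 1 library left out, and -0.17 without member-rich cells. The values without member-rich cells lack the genes' own high counts by choice, so they are no check of the other values. The causes were not tested. The count of all genes called ranged from 1 to 1387 over these alternatives, and the library of 38 cells limits what depth can show for Plzf lu/lu of plate 4.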
